A study of Mus musculus with 6 samples.

Results

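Cytosolic tRNA-Gly was examined in small RNA sequencing of mouse brain, as the tRNA references whose names begin with Gly, without the mitochondrial tRNA-Gly. This name rule selected 10 of the 190 tRNA references listed in any library: 4 with the anticodon GCC, 4 with CCC, 1 with TCC and 1 with ACC. All 10 were listed in each of the 6 libraries, in which 152 to 175 references were listed. Total brain RNA came from wild-type mice (3 libraries) and from TRMT1L knockout mice (3 libraries), and the design text calls the triplicates biological. Strain, age and the knockout allele are not stated in the labels, and RNA was depleted of ribosomal RNA and selected for 30 to 150 bp before library construction. The transcript of the targeted gene was not analysed here, nor were brain marker genes, so neither the genotype labels nor the tissue label was checked. As in any whole-tissue sample, fewer cells of a type and less of an RNA per cell cannot be told apart.

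tRNA-Gly carries glycine to the ribosome and pairs through its anticodon with the GGN codons. The isoacceptors, tRNAs for 1 amino acid with different anticodons, share the cloverleaf of acceptor stem, D arm, anticodon arm and T arm, and fragments from the 5′ part of tRNA-Gly are among the abundant small RNAs known from many tissues and body fluids. TRMT1L is a relative of TRMT1, the methyltransferase that modifies the guanosine at position 26 of many tRNAs. Methylated bases can be seen in sequencing as misread bases or as places where the reverse transcriptase stops, and N1-methyladenosine at position 58 of the T loop is a well-known example.

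The 3 references below are 1 for each anticodon that reads covered. They are read from the deposited reference bases over the listed positions, and the capitals mark the anticodon.
Gly-GCC-2: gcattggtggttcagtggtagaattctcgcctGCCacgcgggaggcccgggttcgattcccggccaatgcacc
Gly-CCC-1: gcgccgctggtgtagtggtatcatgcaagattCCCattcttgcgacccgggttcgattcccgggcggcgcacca
Gly-TCC-1: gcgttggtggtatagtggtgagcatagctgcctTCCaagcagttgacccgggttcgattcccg

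The first 18 bases are shown separately because coverage of several members ended there. The capitals mark bases that differ from Gly-GCC-2, counted from 1 at the 5′ end.
Gly-GCC-2, positions 1 to 18: gcattggtggttcagtgg
Gly-CCC-3, positions 1 to 18: gcattggtggttcaAtgg
Gly-CCC-2, positions 1 to 18: gcattggtAgttcaAtgg
Gly-TCC-1, positions 1 to 18: gcGttggtggtATagtgg
Gly-CCC-1, positions 1 to 18: gcGCCgCtggtGTagtgg

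Gly-GCC-3 and Gly-GCC-4 share these bases with Gly-GCC-2, and Gly-CCC-4 shares them with Gly-CCC-3. Gly-CCC-3 differs from Gly-GCC-2 by the substitution G15A alone, and Gly-CCC-2 by G9A and G15A. Gly-TCC-1 differs by A3G, T12A and C13T, and Gly-CCC-1 by 6 substitutions (A3G, T4C, T5C, G7C, T12G and C13T). RefSeq lists 28 nuclear tRNA-Gly genes in the mouse assembly GRCm38.p6, of which 14 have the anticodon GCC, 7 TCC, 6 CCC and 1 ACC. The build behind the deposited references is not given in the sources used here, so no genomic coordinates are assigned to them.

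The libraries held 6151209 to 6295061 tRNA base calls in wild type and 7981301 to 8797395 in the knockout. tRNA-Gly took 14.3% to 15.95% of them in wild type and 13.1% to 13.9% in the knockout. The depth limit described next holds down 3 members in every library and Gly-TCC-1 in the knockout alone, so no change is read from these shares. No position was listed below 30 reads and none above 8032, and 9 to 15 references per library reached 8000 reads. Values of 8000 or more were therefore read as a depth limit: such a level is only a lower bound, and read starts there are not usable. Gly-GCC-2, Gly-GCC-3 and Gly-GCC-4 reached the limit in all 6 libraries, and Gly-TCC-1 reached it in the 3 knockout libraries alone.

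Coverage is the number of reads at a position, so levels below do not depend on the length of a reference. Gly-GCC-2, Gly-GCC-3 and Gly-GCC-4 stood at 8007 or 8008 reads in every library, a value set by the limit. Away from it they were not identical: at position 48 Gly-GCC-2 had 77 to 133 reads over the 6 libraries, Gly-GCC-3 had 31 to 60 and Gly-GCC-4 had 38 to 78. Since they share their first 18 bases and the stretch around the anticodon, Gly-GCC-2 is described in detail below. Gly-TCC-1 had highest coverages of 7522, 5593 and 7308 reads in wild-type libraries 1 to 3 and 8031, 8030 and 8032 in knockout libraries 1 to 3. All knockout libraries lay above all wild-type libraries, the knockout values are lower bounds, and no order between Gly-TCC-1 and the 3 Gly-GCC references can be read in the knockout. Gly-ACC-1 followed with 4000, 4605 and 4627 reads in wild type and 4897, 5885 and 6653 in the knockout.

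Below these lay Gly-CCC-2 with 1464, 865 and 1492 reads in wild type and 2098, 2701 and 2646 in the knockout. Gly-CCC-1 had 1421, 1516 and 1406 reads in wild type and 1905, 1637 and 1871 in the knockout. In wild type the ranges of Gly-CCC-2 and Gly-CCC-1 overlapped, whereas in the knockout every Gly-CCC-2 library lay above every Gly-CCC-1 library. Gly-GCC-1 reached 274, 330 and 326 reads in wild type and 381, 430 and 480 in the knockout. Gly-CCC-3 was the lowest in wild type with 155, 137 and 210 reads, and reached 490, 359 and 492 in the knockout, where its range overlapped that of Gly-GCC-1. The highest coverage of Gly-CCC-4, over the 5′ stretch it shares with Gly-CCC-3, differed from that of Gly-CCC-3 by at most 0.645%, and its level is described with it. Further on they were not identical: in knockout library 1 Gly-CCC-3 had 59 reads at position 57 and Gly-CCC-4 had 31.

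**Figure D1:**
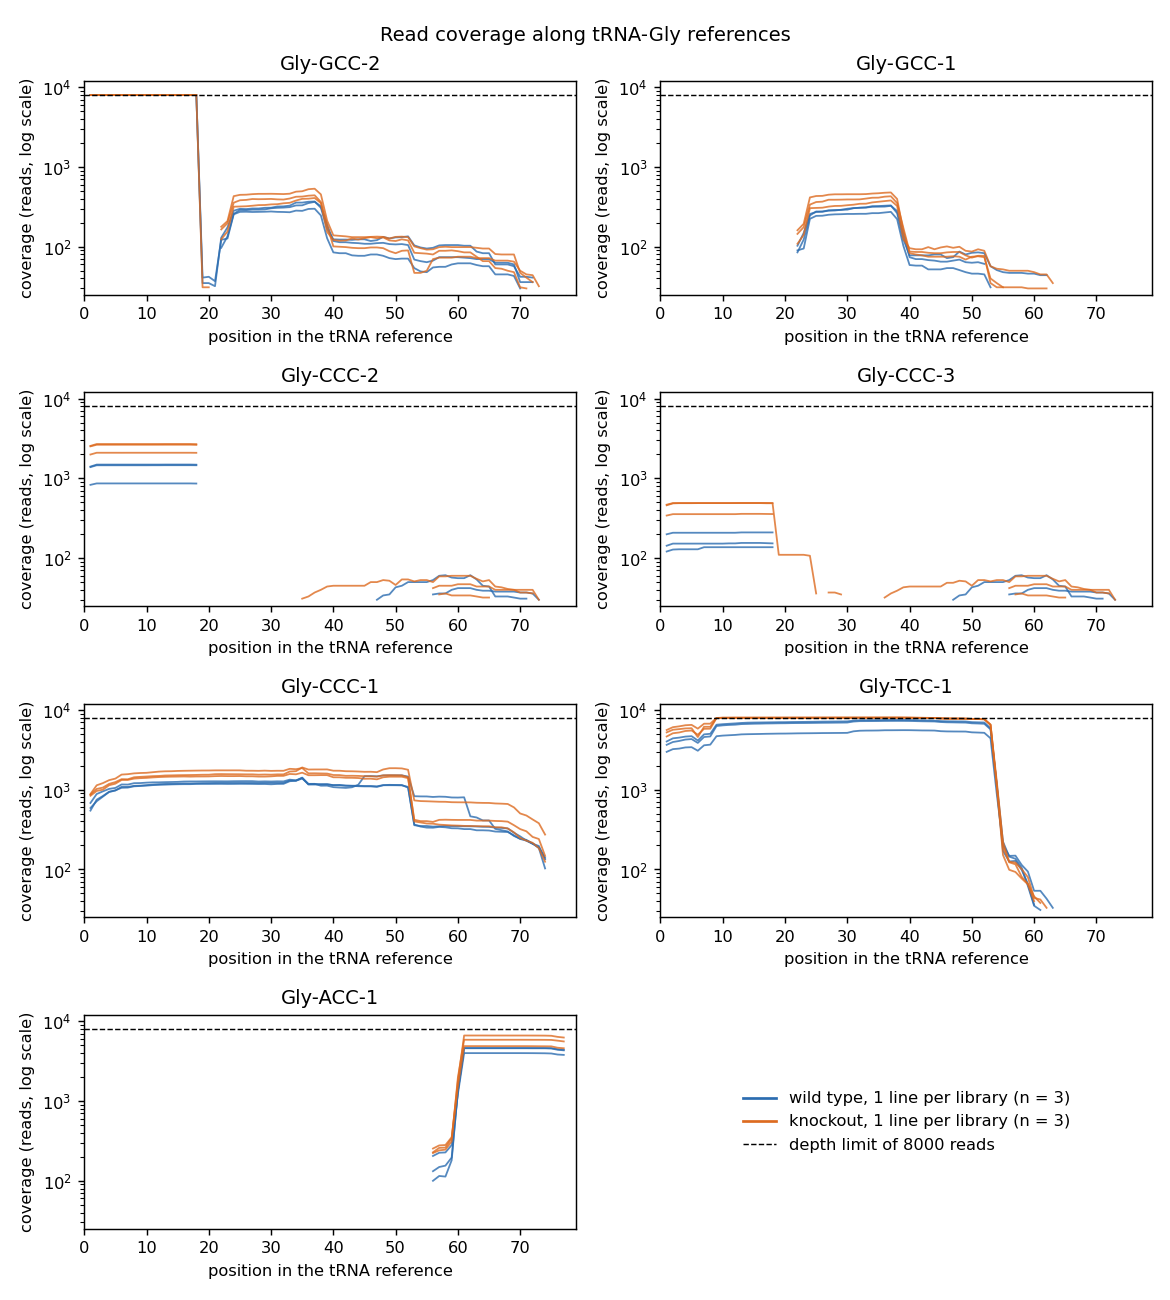
Coverage in reads (log scale) against position for 7 tRNA-Gly references, with 1 line per wild-type (blue) or knockout (orange) library and a dashed line at the depth limit of 8000 reads. Gly-GCC-2, Gly-CCC-2 and Gly-CCC-3 drop after position 18, Gly-TCC-1 and Gly-CCC-1 run on into the T arm, and Gly-ACC-1 is covered from position 56.

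The references differed in which part of the tRNA was covered, and these differences did not follow the anticodon groups. Gly-GCC-2 had 8007 reads at position 18 in wild-type library 1 and 41 at position 19. In the other libraries coverage at position 19 was 35 reads in wild-type library 2, 31 in knockout library 2 and below the listed minimum of 30 reads in the remaining 3. The loss from position 18 to 19 was at least 99.5% to 99.6% over the 6 libraries. In the standard tRNA numbering, position 18 of this reference is position 19, in the D loop.

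Gly-CCC-2 fell from 1462, 862 and 1486 reads at position 18 in wild type, and from 2094, 2692 and 2632 in the knockout, to below the listed minimum at position 19 in all 6 libraries. Its loss was at least 96.6% to 98.9%. Gly-CCC-3 fell from 153, 137 and 210 reads in wild type and 488, 357 and 490 in the knockout. Only knockout library 1 had listed reads at its position 19, 110 of them, and coverage there stayed at 107 reads at position 24 before dropping to 36 at position 25. The loss for Gly-CCC-3 was at least 77.5% to 94.1%, with knockout library 1 at the lowest value, and the starting coverage sets the highest loss that could be seen.

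Gly-CCC-1 and Gly-TCC-1 showed no such drop. Their coverage changed from position 18 to 19 by at most 0.581% of the reads in any library, and always upward or not at all. In the knockout libraries Gly-TCC-1 was at the depth limit at both positions, so its values there are lower bounds and only wild type can show this. Among the 86 other tRNA references with at least 100 reads at position 18 in a library, the highest loss was 9.40%, and among the 20 of them that belong to the Glu, Val, Lys, His and Asp families compared here it was 2.82%. None of these references lost more than 50% of its coverage at that step. The losses were a description without a test. The groups of libraries overlapped for Gly-CCC-3 and did not for Gly-CCC-2, whose values are bounds set by the coverage at position 18 alone, so no difference is read from them. Reads that end at position 18 cover at most 18 bases of the reference, which is shorter than the 30 to 150 bp of the RNA selected for the libraries. Read lengths are not listed, and whether these reads were whole molecules, were trimmed or were aligned over part of their length was not tested.

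**Figure D2:**
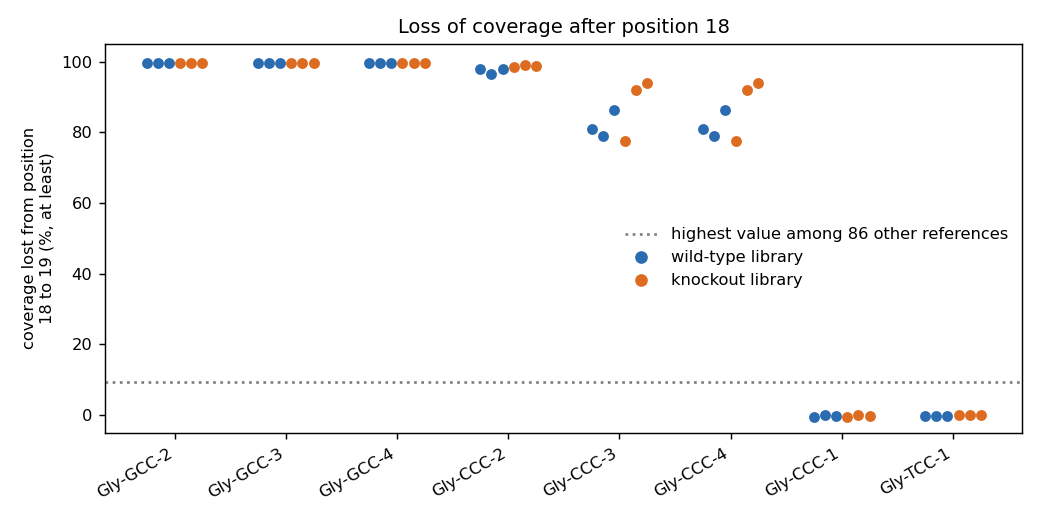
Percentage of coverage lost from position 18 to 19 (at least, where position 19 was not listed) for 8 tRNA-Gly references, with 1 point per wild-type (blue) or knockout (orange) library. The dotted line is the highest loss among 86 other references, 9.40%, and the GCC references and Gly-CCC-2 lie above 96% in all 6 libraries.

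A second set of Gly-GCC reads covered the anticodon arm. Its stretch, positions 22 to 38 of Gly-GCC-2, is shown because it is shared by all 4 Gly-GCC references and by no other tRNA reference with these bases listed.
Gly-GCC-2, positions 22 to 38: aattctcgcctgccacg

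At position 37 Gly-GCC-2 had 300, 370 and 366 reads in wild type and 409, 442 and 535 in the knockout. Gly-GCC-3 had 270 to 463 reads there and Gly-GCC-4 had 275 to 487. Read starts gathered at position 22, with 69.7% to 86.5% of the reads of Gly-GCC-2 over the 6 libraries, on fewer than 100 reads in 1 library and so not tested, and at position 24, where 50.2%, 38.5% and 47.5% of the wild-type reads and 51.6%, 44.8% and 51.3% of the knockout reads began. The groups overlapped, with a difference of 3.82 percentage points (moderated quasi-binomial test, adjusted p = 0.856), which ran from 0.379 without wild-type library 2 to 6.22 without wild-type library 1. Of the reads at position 38, 52.2%, 48.1% and 42.2% ended there in wild type and 56.9%, 49.6% and 55.1% in the knockout. Over all libraries together this share was 59.2% in Gly-GCC-3 and 57.5% in Gly-GCC-4. Of the Gly-GCC-2 reads that remained at position 39, 34.2% over all libraries together ended there. Gly-GCC-1 was listed from position 22 to 63 alone, with 50.7% of reads at position 24 starting there and 56.7% of reads at position 38 ending there over all libraries. The number of reads ending at position 38 over all libraries was 1045 in each of the Gly-GCC references. Reads of this shared stretch therefore cannot be assigned to 1 of them, and their values are not separate observations. Position 38 corresponds to position 39 of the standard numbering, just 3′ of the anticodon loop.

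Gly-CCC-1 was covered over its whole length, from position 1 to the CCA end at position 74. In wild type 1062, 1463 and 1086 reads covered position 52, and 359, 830 and 366 covered position 53. In the knockout the step was from 1781, 1397 and 1431 reads to 735, 420 and 400. The share of reads ending at position 52 was 67.0%, 43.6% and 66.9% in wild type and 59.5%, 70.4% and 73.1% in the knockout. The groups overlapped, and wild-type library 2 was the lowest of the 6.

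Gly-TCC-1 lost most of its coverage at the same place of the T loop. Reads ended at position 53 for 81.1%, 79.8% and 79.3% of the coverage in wild type and 82.8%, 82.9% and 80.3% in the knockout. Of the reads that went on, 82.9% over all libraries ended at position 54. Position 53 of Gly-TCC-1 and position 52 of Gly-CCC-1 are both the T at position 54 of the standard numbering. Gly-TCC-1 had 5903, 4419 and 5723 reads at position 53 in wild type and 36, 54 and 35 at position 60. The knockout libraries fell from 6585, 6544 and 6490 reads to 46, 40 and 44, and the groups overlapped at position 60.

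**Figure D3:**
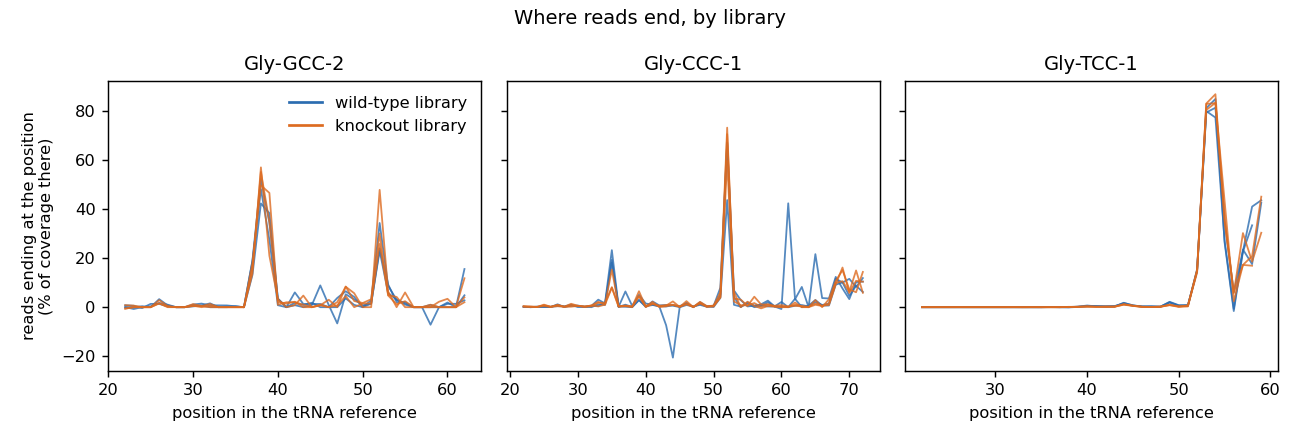
Percentage of the reads at a position that end there, against position, for Gly-GCC-2, Gly-CCC-1 and Gly-TCC-1, with 1 line per library (wild type blue, knockout orange). Peaks lie at positions 38 and 39, at 52, and at 53 and 54; negative values are places where coverage rose by more than the listed read starts, and the peak at position 61 of Gly-CCC-1 is wild-type library 2.

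Gly-ACC-1 was listed over positions 56 to 77 alone, shown here because this stretch decides what its reads can say; the capitals mark positions 61 to 77, which carried most of its reads.
Gly-ACC-1, positions 56 to 77: tcgaaACCGGGCGGAAACACCA

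The same 22 bases are in Val-AAC-1, Val-AAC-2, Val-AAC-5, Val-CAC-1 and Val-CAC-2, and the coverage of these 5 references differed from that of Gly-ACC-1 by at most 0.143% at the matching position. Its reads therefore cannot be assigned to tRNA-Gly rather than tRNA-Val, and its anticodon was not covered. Reads starting at position 60 or 61 made up 92.8%, 96.0% and 95.8% of the coverage at position 61 in wild type and 92.7%, 94.7% and 94.9% in the knockout. At position 61 the share of read starts was 69.1%, 70.5% and 71.2% in wild type and 68.6%, 66.4% and 73.1% in the knockout. The genotypes overlapped, with a difference of -0.94 percentage points (moderated quasi-binomial test, adjusted p = 0.923). Between 94.0% and 95.2% of these reads reached the last base.

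The next question was whether the tRNA-Gly references changed in level without TRMT1L. Before any scaling, all 6 tested tRNA-Gly references (Gly-ACC-1, Gly-CCC-1 to Gly-CCC-4 and Gly-GCC-1) had every knockout library above every wild-type library, and so did 59.7% of the 124 references tested. After scaling with TMM, edgeR's quasi-likelihood test with Benjamini-Hochberg adjustment over all 124 references called 18 of them (14.5%), 13 higher in the knockout (10.5%) and 5 lower. The called tRNA-Gly references were Gly-CCC-3 and its near copy Gly-CCC-4, which share the bases of the 5′ stretch that sets their highest coverage and count as 1 change. The 18 calls hold near copies of other tRNAs too. With copies within 5% counted once, 9 of 109 references were called, and no tRNA-Gly reference. Over all references tested the median log2 fold change was -0.05.

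Gly-CCC-3 was 0.84 higher in the knockout on the log2 scale (SE 0.25, adjusted p = 0.0423, edgeR, n = 3 and 3), with all 3 knockout libraries above all 3 wild-type libraries before scaling. The call was close to the threshold. It was lost when near copies were counted once (log2 fold change 0.90, adjusted p = 0.0561), with upper-quartile scaling (0.61, adjusted p = 0.131) and without any one of the libraries other than wild-type library 3 (adjusted p = 0.0584 to 0.192), while the log2 fold change stayed between 0.61 and 1.08 in all alternatives run. The call was also lost with no filter on low counts, with median in place of highest coverage and with scaling by total coverage alone. It was kept with DESeq2 (0.84, adjusted p = 0.00841) and with every reference counted (0.82, adjusted p = 0.0310). It was kept too with references at the depth limit included (adjusted p = 0.0375). In knockout library 1, 93 of 490 base calls at each of positions 7 and 16 were mismatches, and 110 reads covered position 19. Whether these reads came from Gly-CCC-3 was not tested, and without that library the log2 fold change was 0.77 (adjusted p = 0.166).

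Gly-CCC-2, whose first 18 bases differ from those of Gly-CCC-3 by 1 substitution, had a log2 fold change of 0.40 (SE 0.22, adjusted p = 0.290, edgeR), which fell to 0.17 without wild-type library 2 (adjusted p = 0.660). With median in place of highest coverage it was 0.73 (SE 1.40, adjusted p = 0.766). Gly-CCC-1, the member covered over its whole length, had -0.25 (SE 0.15, adjusted p = 0.338). It was -0.16 without knockout library 2, -0.47 with upper-quartile scaling and -0.087 with median in place of highest coverage (adjusted p = 0.698, 0.139 and 0.731). Gly-GCC-1, covered over the anticodon arm, had -0.10 (SE 0.21, adjusted p = 0.810), and the 3′ stretch named Gly-ACC-1 had -0.17 (SE 0.15, adjusted p = 0.483). Without knockout library 1 these were -0.0097 and -0.056, and with median in place of highest coverage Gly-GCC-1 had -0.44 (adjusted p = 0.530). None of these 4 passed the threshold. The highest coverage of Gly-GCC-1 lay in the stretch shared by all Gly-GCC references, so its level cannot be assigned to it alone. With the Gly-CCC references added together the log2 fold change was 0.15 (SE 0.14, adjusted p = 0.541).

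Deviations of libraries with the same replicate number had weak correlations in this measure, 0.12, 0.13 and 0.14 for numbers 1 to 3. They are given without a test and do not show that the libraries were paired. With the replicate number as a block, edgeR called 4 of the 6 tRNA-Gly references: Gly-CCC-3 and Gly-CCC-4 (0.86, adjusted p = 0.00326), Gly-CCC-2 (0.43, adjusted p = 0.0362) and, lower in the knockout, Gly-ACC-1 (-0.17, adjusted p = 0.000107). That fit called 32 of the 124 references. In the scaled data, upper-quartile scaling moved the median of all references to -0.28, so that changes under it are relative to that shift.

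The 7 families set beside tRNA-Gly (Glu-CTC, Glu-TTC, Val-CAC, Val-AAC, Lys-CTT, His-GTG and Asp-GTC) had 16 tested references. Of these, 1 of Val-AAC was called higher in the knockout and 1 of Lys-CTT lower, with log2 fold changes over the 16 from -0.95 to 0.81. The 16 include Val-AAC-2, Val-AAC-5 and Val-CAC-1, which hold the stretch shared with Gly-ACC-1. Their log2 fold changes were -0.175, -0.173 and -0.175, and they count the reads of that stretch again. The mitochondrial tRNA-Gly was listed but was not among the references tested.

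**Figure D4:**
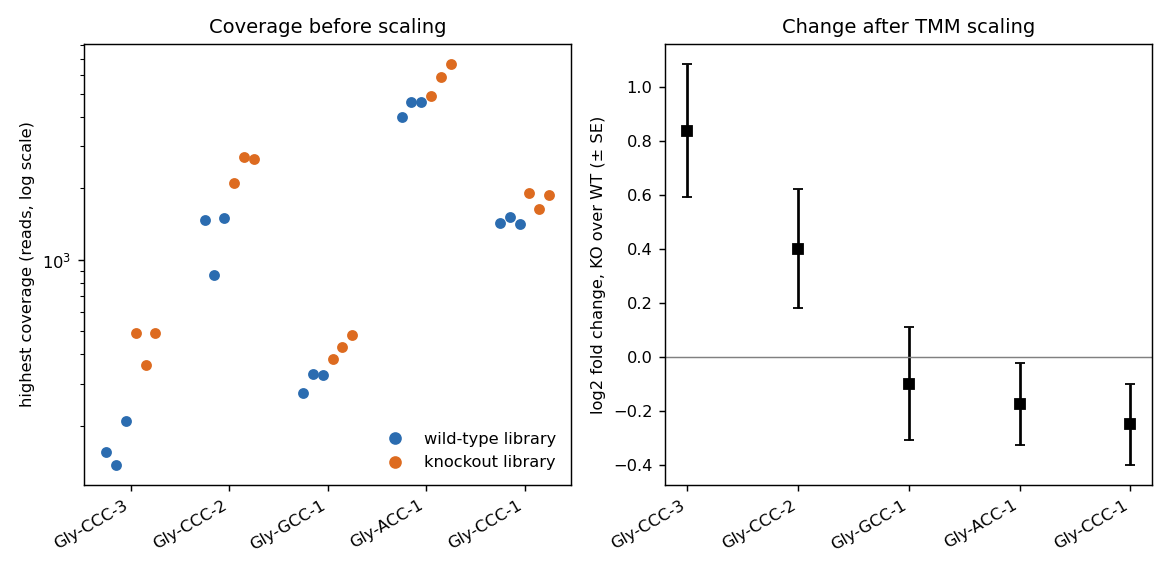
Left, highest coverage in reads (log scale) of 5 distinct tRNA-Gly references below the depth limit, with 1 point per wild-type (blue) or knockout (orange) library; right, log2 fold change, knockout over wild type, with its standard error after TMM scaling. All 5 have the knockout above wild type before scaling, and after scaling the estimates run from -0.25 for Gly-CCC-1 to 0.84 for Gly-CCC-3.

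The balance of 5′ and 3′ reads was compared as the log2 ratio of mean coverage over positions 11 to 30 to that over positions 46 to 65, with unlisted positions counted as 15 reads. For the Gly-CCC group it was 1.47, 0.57 and 1.63 in wild type and 1.14, 1.72 and 1.90 in the knockout. The groups overlapped (difference 0.36, exact two-sided permutation test, p = 0.5, where 0.1 is the smallest p that 3 against 3 libraries allow), and without wild-type library 2 the difference was 0.034. For the Gly-GCC group it was 4.84 ± 0.42 in wild type and 4.64 ± 0.25 in the knockout (SD, n = 3), with the 5′ window at the depth limit in all 6 libraries. The limit fixes the numerator, so these values are lower bounds and no comparison of the balance is made from them.

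Gly-TCC-1 had log2 ratios of 1.29, 1.22 and 1.28 in wild type and 1.35, 1.36 and 1.35 in the knockout. The groups did not overlap, the difference was 0.09 and the exact permutation p was 0.1, the smallest possible. All 3 knockout libraries had their 5′ window at the depth limit, so no change can be read from it. Within the CCC group, Gly-CCC-3 differed by 1.06 (1.48 ± 1.10 in wild type and 2.54 ± 0.52 in the knockout, SD, n = 3, exact permutation p = 0.3). That value rests on the 15 reads assumed where none were listed: with 1 read there it was 0.048, and without wild-type library 2 it was 0.53. Gly-CCC-1 and Gly-CCC-2 differed by 0.12 and 0.65, with exact permutation p = 0.7 and p = 0.6.

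Mismatches to the reference base were tested at 136 sites over all tRNA references. None had an adjusted p under 0.05 (0% called), 11 had an unadjusted p under 0.05 (8.09%), and in 5 the genotypes did not overlap (3.68%); the smallest adjusted p was 0.545. On tRNA-Gly 13 sites were tested, or 10 with the sites of near copies within 0.5 percentage points counted once, of which 2 had an unadjusted p under 0.05 and 1 had groups that did not overlap. In the self-test with simulated counts, the same procedure called 76.5% of sites whose odds had been changed 4-fold.

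Among the tested tRNA-Gly sites the highest mismatch percentage was at position 56 of Gly-CCC-1, the adenosine at position 58 of the standard numbering, in the T loop. It was 49.6%, 21.7% and 65.4% in wild type and 69.5%, 62.8% and 53.9% in the knockout, mostly T calls. The knockout mean was higher by 16.5 percentage points, the groups overlapped, and the adjusted p of the quasi-binomial test was 0.545. Wild-type library 2 was the lowest, with 811 base calls there against 332 to 712 in the others. Without it the wild-type mean was 57.5% and the difference 4.59 percentage points, and without wild-type library 3 the difference was 26.4 percentage points.

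The same adenosine had lower percentages in Gly-TCC-1 and no mismatch in Gly-GCC-2, a description without a test. At position 57 of Gly-TCC-1 the mismatch percentage was 7.81%, 15.1% and 15.4% in wild type and 18.97%, 14.5% and 20.5% in the knockout, on 83 to 146 base calls, too few in 1 library for the test. In Gly-GCC-2 there was no mismatch at position 56 among 219 base calls in wild type and 243 in the knockout, and the Wilson 95% upper limits per library were 3.81% to 6.53%. In Gly-GCC-1, with the same anticodon, it was 0 of 47 base calls in wild-type library 2, 8 of 50 in knockout library 1 and 12 of 31 in knockout library 3, the 3 libraries where it was listed. In Gly-CCC-2 the same position had 20 mismatches of 35, 12 of 48, 28 of 50 and 3 of 42 base calls in the 4 libraries where it was listed. The 22 bases from position 51 to 72 are identical in Gly-GCC-2 and Gly-CCC-2, yet the base calls listed at position 56 differed in the same library: in wild-type library 1 none of 55 calls of Gly-GCC-2 and 20 of 35 of Gly-CCC-2 were mismatches. How reads of this stretch were assigned to a reference was not tested. Intervals cover counting error only.

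Among all tRNA references, the equivalent adenosine, found as the last base of TTCGA or TTCAA past position 44 of the forward strand, could be measured in 29 with distinct counts and at least 100 reads per library. Gly-CCC-1 had 50.8% over all libraries (rank 8), and 61.7% (rank 2) without wild-type library 2. The other 28 ran from 0% to 78.9%, with a median of 8.63%.

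Position 6 of Gly-TCC-1, a guanosine of the acceptor stem, was read mostly as G or T. Its mismatch percentage was 36.01%, 39.9% and 32.4% in wild type and 40.7%, 37.8% and 38.8% in the knockout, on 3086 to 5837 base calls. The groups overlapped, with a difference of 2.98 percentage points (adjusted p = 0.652), which ran from 1.11 without wild-type library 3 to 4.89 without wild-type library 2. At position 7 the mismatch percentage was 0.618%, 0.353% and 0.434% in wild type and 2.40%, 1.17% and 1.01% in the knockout. This was the site with groups that did not overlap, and its adjusted p was 0.545. These percentages are of base calls, and 25.8% of the reads at position 7 had no base call in knockout library 1, the library with the highest percentage, against 13.3% to 15.1% in the others. Its part in the difference was not tested. Coverage in this part of Gly-TCC-1 was irregular: it rose from 5035 reads at position 8 to 6547 at position 9 in wild-type library 1 with 98 listed read starts, and in all 6 libraries the rise at that step exceeded the listed starts by 964 to 2121 reads. Whether this irregular coverage bears on the mismatches at positions 6 and 7 was not tested.

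The guanosine that TRMT1 modifies in other tRNAs is present at position 26 of the standard numbering in Gly-CCC-1, as position 25 of the reference. It was misread in 1 of 1221, 0 of 1186 and 0 of 1282 base calls in wild type and in 4 of 1564, 0 of 1486 and 0 of 1750 in the knockout. The Wilson 95% upper limits were 0.299% to 0.462% in wild type and 0.219% to 0.656% in the knockout. Gly-TCC-1 has an adenosine at position 26 and a guanosine at position 27, which was misread in 6 of 19244 base calls in wild type and 2 of 24061 in the knockout. These percentages lay below the 1% needed for testing, so the genotypes were not compared at these sites.

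**Figure D5:**
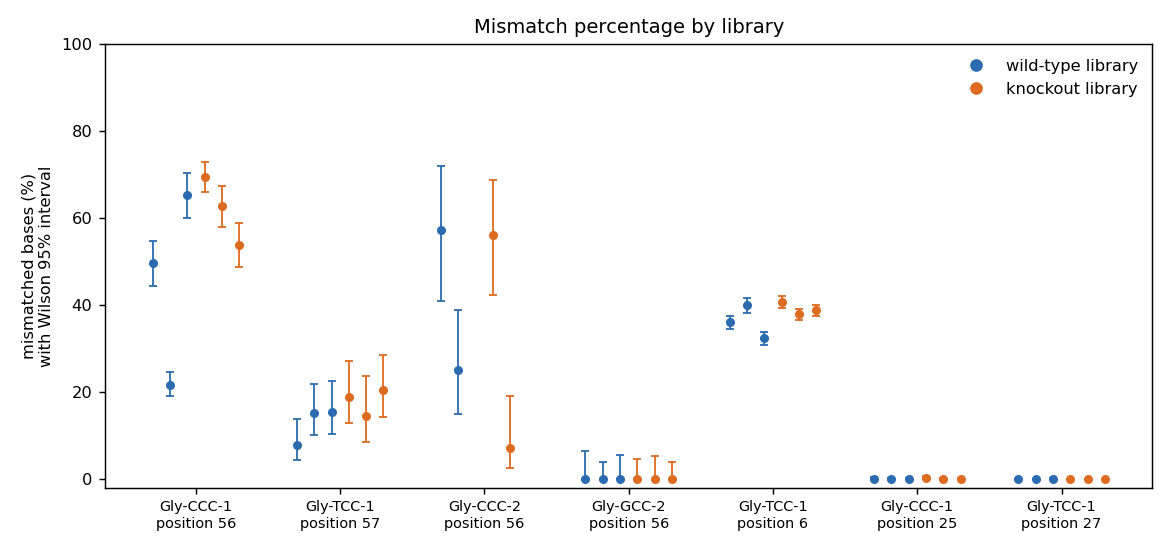
Percentage of mismatched base calls per library (wild type blue, knockout orange) with Wilson 95% intervals at 7 tRNA-Gly sites. Gly-CCC-1 position 56 spans 21.7% to 69.5% with overlapping genotypes, Gly-TCC-1 position 6 spans 32.4% to 40.7%, and Gly-GCC-2 position 56 is at 0 in all 6 libraries.

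The other tested mismatch sites had at most 6.72% over all libraries together, at position 55 of Gly-TCC-1, and some rested on single libraries. At positions 7 and 16 of Gly-CCC-3, 18.98% of the calls in knockout library 1 were mismatches, 93 of 490 at each, against 0% in the other knockout libraries and at most 0.730% and 5.84% in wild type. At position 64 of Gly-CCC-1 wild-type library 2 had 22.8% and no other library more than 0.244% (adjusted p = 0.545). Position 55 of Gly-TCC-1 ran from 1.88% to 12.7% over the libraries, and position 59 of Gly-ACC-1 from 0.321% to 7.14%. Position 6 of Gly-CCC-1 had 1.63% and position 23 of Gly-GCC-2 had 1.40% over all libraries together.

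Read starts were tested at 970 sites over all references, leaving out sites at the depth limit. None passed (0% called, smallest adjusted p = 0.438), 70 had an unadjusted p under 0.05 (7.22%), and at 123 the genotypes did not overlap (12.7%). Of the 64 tRNA-Gly sites (52 with near copies counted once), 3 had an unadjusted p under 0.05 and at 3 the genotypes did not overlap. The difference with the smallest adjusted p was at position 3 of Gly-CCC-1, where 12.6%, 10.2% and 7.33% of reads began in wild type and 3.94%, 3.79% and 6.19% in the knockout. The difference was -5.38 percentage points with all knockout libraries below all wild-type libraries, and the adjusted p of 0.606 did not pass. Among the tested sites past the first listed position of a reference, the highest percentages were at positions 60 and 61 of Gly-ACC-1, with 82.0% and 69.9% over all libraries, and at position 24 of Gly-GCC-1 and Gly-GCC-2.

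Deletions were tested at 57 sites, none of which passed (0% called, smallest adjusted p = 0.211). At 6 the unadjusted p was under 0.05 (10.5%), and at 7 the genotypes did not overlap (12.3%). tRNA-Gly had 2 of the tested sites, adjacent positions of Gly-TCC-1 just past position 53, and at neither did the genotypes separate. At position 54 deletions made up 22.3%, 18.7% and 23.2% of coverage in wild type and 19.3%, 19.7% and 18.6% in the knockout (difference -2.21 percentage points, adjusted p = 0.682). Without wild-type library 2 the difference was -3.53 and without wild-type library 3 it was -1.32. At position 55 they made up 9.94%, 12.3% and 8.07% in wild type and 5.21%, 30.3% and 18.6% in the knockout (adjusted p = 0.682).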

How the data were processed

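Per the labels' protocols, total RNA of mouse brain was ribo-depleted and size-selected before sequencing. Raw counts were deposited per position and tRNA reference, named in the file headers as coverage, A, T, C and G calls, reverse-transcription stops, deletions and insertions; the deposited mean and median base quality, a score, was not tested. GATK 3.5 is named in the submitters' processing notes; the aligner and the build are not given in the sources used here. The listed stops lie 1 position after a read start: at all 527 first positions followed by a listed one, starts taken this way equalled coverage. Read ends were computed from the drop in coverage and the starts. A, T, C and G calls summed to less than coverage in 1420 of 46877 lines, so mismatch percentages use the calls.

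Mismatches, read starts and deletions were fitted per site with a quasi-binomial model, its dispersion moderated with limma 3.58.1 (R 4.3.3) and floored at 1, at sites with coverage of at least 100 in each library and a pooled rate of at least 1%, two-sided. The highest coverage of each reference, as a count, was tested with edgeR 4.0.16 (quasi-likelihood, TMM), over references listed in all 6 libraries and never at 8000 reads. DESeq2 1.42.0 was an alternative. Adjustment was by Benjamini-Hochberg over all references. Ratios were compared by exact permutation (scipy 1.17.1), and copies with identical counts were counted once.

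The procedures were tested on simulated data: without changes none called a site or reference, and with 4-fold changes they recovered 76.5% of mismatch, 72.5% of read-start and 78.6% of deletion sites and 100% of references. Of the 27, 32, 12 and 22 calls made there, 26, 29, 11 and 20 were items that had been changed. No libraries were duplicates (chi-square per degree of freedom 16.4 to 58.2). Same-numbered libraries had weak positive correlations in level, given without a test. The blocked fit is given there as an alternative only, since the labels give the number alone. All tRNA-Gly references were named, together with the sites of highest percentage over all libraries; members and lists were chosen with earlier results of these data known.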

Additional observations from a re-analysis of the deposited data

How the results depend on the processing

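No mismatch site was called under any of the alternatives run. With a pooled rate of at least 0.5%, 2 read-start sites were called, both of tRNA-Gly: positions 8 and 9 of Gly-TCC-1 (-1.41 and -1.36 percentage points, adjusted p = 0.00018). With sites at the depth limit kept, 3 were called, 1 of them position 31 of Gly-TCC-1 (-3.13 points, adjusted p = 0.00223). Knockout coverage was at the limit at position 31. At position 9 it was 7929, 7954 and 7968 reads, close to the limit, with 1 read start in each knockout library against 98, 53 and 94 in wild type. At position 8 it was 6166, 5832 and 6743 reads, with 0, 1 and 1 read starts against 75, 48 and 68 in wild type. The part of the limit in these calls was not tested, so no genotype difference is read from them. A coverage minimum of 500 or a rate of at least 5% called 1 deletion site each, of no tRNA-Gly. Leaving out each library gave 0 to 1 deletion sites (1 without wild-type library 2) and 0 read-start sites.

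For levels, 29 references were called with those at the depth limit kept (4 of tRNA-Gly, among them Gly-GCC-2 and Gly-GCC-3 at -0.49, whose coverage is fixed by the limit) and 9 with copies within 5% counted once (chosen after seeing the data). No tRNA-Gly reference (0) was called with upper-quartile scaling, no filter, median coverage, copies within 5% counted once or scaling by total coverage alone, also chosen afterwards. Leaving out each library gave 11 to 24 references, the lowest without knockout library 2, and 0 to 2 of tRNA-Gly.

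The replicate block raised the calls for levels from 18 to 32, and from 2 to 4 for tRNA-Gly, and changed no other call: 0 mismatch, read-start and deletion sites. For sites the correlations by number ran from -0.15 to 0.15, a range that holds those of the levels. The mean 5′ to 3′ differences are the same by pairs (0.36, -0.21 and 0.09 for CCC, GCC and TCC).

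The 5′ to 3′ difference turned negative for Gly-CCC-2 (-0.47) and Gly-GCC-1 (-0.13) with unlisted positions as 1 read, and for Gly-GCC-1 (-0.39) with a 5′ window of positions 1 to 18, chosen afterwards. For Gly-CCC-3 it was 0.048 with unlisted positions as 1 read. Without single libraries it ran from 0.034 to 0.58 for the CCC group, -0.42 to -0.0074 for the GCC group, 0.53 to 1.63 for Gly-CCC-3, -0.13 to 0.30 for Gly-CCC-1, -0.010 to 1.21 for Gly-CCC-2, -0.18 to 0.36 for Gly-GCC-1 and -0.34 to 0.053 for Gly-GCC-2, and the read-start difference at position 61 of Gly-ACC-1 from -2.80 to 0.54 points. The causes were not tested. The depth limit leaves Gly-GCC-2 to Gly-GCC-4 and Gly-TCC-1 without a fold change.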

Other observations

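Values of single libraries stood out in 2 members and are given without a test, having been chosen after they were seen. In Gly-CCC-1 of wild-type library 2, coverage rose from 1154 reads at position 44 to 1481 at position 45 with 90 listed read starts, while in the other 5 libraries it did not rise at that step. In the same library 42.3% of the reads at position 61 ended there, against at most 0.284% in the others. In Gly-CCC-3 of knockout library 1, the mismatches at positions 7 and 16 had equal numbers, 93 of 490 calls each.

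Read ends were compared without a test at sites with at least 100 reads in each library, below the depth limit, where at least 1% of the reads ended. The groups did not overlap at 4 of 45 tRNA-Gly sites (8.89%), and at 99 of 827 sites over all references (12%). At position 35 of Gly-CCC-1, the last base of the anticodon, 18.2%, 23.2% and 19.3% of the reads ended in wild type and 7.98%, 8.12% and 15.3% in the knockout. All knockout libraries lay below all wild-type libraries. At position 69 the order was the other way, with 10.03%, 7.60% and 10.07% in wild type and 16.1%, 10.6% and 15.1% in the knockout. The other 2 sites, positions 44 and 49 of Gly-TCC-1, were lower in the knockout, and no percentage there was above 2.20%. These sites were also chosen after their values were seen.

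Insertions were listed in some library at 36 positions of tRNA-Gly references. At 4 of these every library had at least 100 reads and the rate over all libraries was at least 0.5%, and at none of these 4 did every knockout library lie above every wild-type library. The highest of the 4 was the last base of Gly-CCC-1, position 74, with 3.88%, 8.57% and 5.22% in wild type and 6.93%, 1.35% and 13.6% in the knockout, on coverage of 103 to 274 reads. Higher percentages lay at thinly covered positions, such as 30 insertions on 36 reads at position 72 of Gly-CCC-2 in knockout library 2.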
